A study of Mus musculus with 45 samples.

Results

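Goblet cell mucus and secretory genes were examined in the mouse ileum, as a set of 10 of the 19494 genes measured. The members were chosen by name, with earlier results of these data known. They were Muc2, Fcgbp, Clca1, Zg16, Tff3, Spink4, Agr2, Sytl2, Creb3l4 and Atoh1. All 10 were measured, each by 1 probe set. The 45 arrays held 9 groups of 5 mice, and each array carried the RNA of a single mouse.

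Goblet cells are secretory cells of the intestinal epithelium that release mucus onto the villi and crypts. The transcription factor Atoh1 commits progenitors to the secretory lineages, which include goblet, Paneth and enteroendocrine cells. Mucin is folded and disulfide-bonded in the endoplasmic reticulum, glycosylated in the Golgi, stored in granules and then exocytosed, and the released gel keeps bacteria away from the epithelium. FADD and caspase-8 transmit death receptor signals and restrain necroptosis, a lytic form of cell death in which the kinase RIPK3 activates the membrane-disrupting protein MLKL. ZBP1 is a nucleic acid sensor that can engage RIPK3.

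The triple mutant group was FADD IEC-KO CASP8 IEC-KO Mlkl -/-, in which IEC-KO marks deletion in intestinal epithelial cells and -/- a deletion in the whole mouse. FADD IEC-KO RIPK3 IEC-KO mice lacked FADD and RIPK3 in the epithelium. FADD IEC-KO Zbp1 -/- and FADD IEC-KO Mlkl -/- mice lacked epithelial FADD together with ZBP1 or MLKL throughout the body, and FADD IEC-KO mice lacked epithelial FADD alone. Fadd fl/fl mice, with floxed alleles and no deletion named, were their controls. CASP8 IEC-KO Mlkl -/- and CASP8 IEC-KO mice lacked epithelial caspase-8 with or without MLKL, and Casp8 fl/fl mice were their floxed controls. The driver of the epithelial deletion was not given in the labels, and sex was not given. Mice were 11 weeks old, and whole ileum, including muscle and immune cells that keep the floxed genes, was frozen on dry ice.

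Values are log2 intensities, so a difference of 1 is a doubling. Array medians lay between 6.36 and 6.44, and no 2 arrays were identical. The ileal transporter and binding protein genes Slc10a2 and Fabp6 ranged from 11.22 to 11.94 and from 11.89 to 12.95 over the 45 arrays. Fadd was 5.34 to 6.52 in the triple mutants, whose genotype field names only CASP8 IEC-KO Mlkl -/-, against 7.46 to 7.61 in Fadd fl/fl mice. Fadd in FADD IEC-KO replicate 1 was 7.32, nearer to the controls than the 5.96 to 6.45 of the other FADD IEC-KO mice. Casp8 in CASP8 IEC-KO replicate 1 was 10.89, against 9.63 to 10.57 in the other CASP8 IEC-KO mice and 11.24 to 11.49 in Casp8 fl/fl mice. Mlkl was 6.94 to 7.32 in triple mutants, 7.85 to 8.39 in FADD IEC-KO Mlkl -/- mice and 8.18 to 8.66 in CASP8 IEC-KO Mlkl -/- mice, which overlapped the 8.43 to 8.98 of Casp8 fl/fl mice. Ripk3 was 7.33 to 7.76 in FADD IEC-KO RIPK3 IEC-KO mice, and Zbp1 was 5.66 to 6.46 in FADD IEC-KO Zbp1 -/- mice, against 7.90 to 8.47 and 6.23 to 7.72 in Fadd fl/fl mice. Whether these probe sets lie in the deleted parts was not given, so Mlkl and Zbp1 signals do not check those labels. Sample titles carry a number that is under 100 for some mice and at least 200 for the others, and what it stands for is not given. All 5 triple mutants have numbers of 200 and over and all 5 FADD IEC-KO Mlkl -/- mice have numbers under 100, so series and genotype cannot be told apart between these groups.

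**Figure D1:**
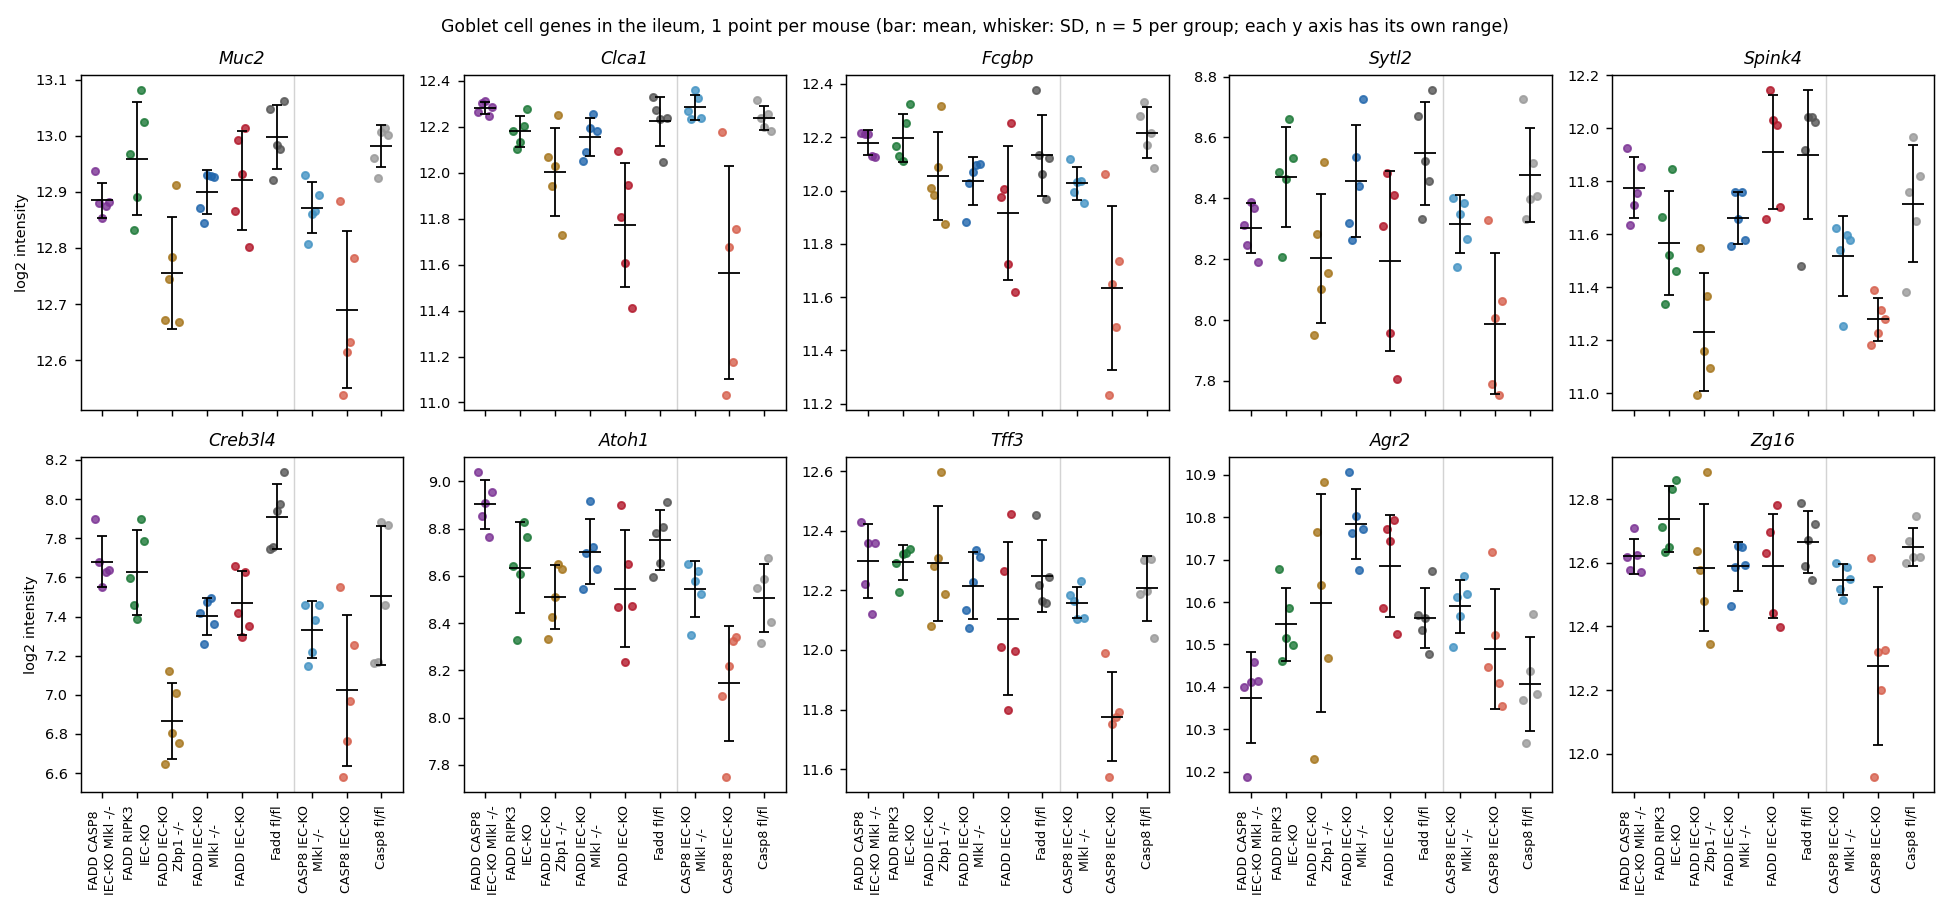
Log2 intensity of each of the 10 genes (y axis, own range per panel) in the 9 groups (x axis), with 1 point per mouse, a bar at the mean and whiskers of 1 SD (n = 5). CASP8 IEC-KO mice have the lowest mean of Muc2, Clca1, Fcgbp, Sytl2, Atoh1, Tff3 and Zg16, and FADD IEC-KO Zbp1 -/- mice have the lowest mean of Spink4 and Creb3l4.

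Most of the goblet cell genes were lower after loss of caspase-8 in the epithelium. Compared with Casp8 fl/fl, 9 of the 10 members fell in CASP8 IEC-KO ileum and none rose, by limma with adjusted p-values over all genes. Over all 19494 genes, 4.17% passed the same threshold and 1.28% fell. The members were chosen with earlier results of these data known, so this comparison with all genes describes them and is not a test. The median log2 fold change was -0.43 over the members and -0.02 over all genes. In whole ileum, fewer goblet cells and less RNA per goblet cell cannot be told apart.

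The genes for the mucus gel itself were among those that fell. Muc2, the gel-forming mucin of intestinal mucus, was 12.88, 12.54, 12.62, 12.63 and 12.78 in the 5 CASP8 IEC-KO mice, against 12.96, 12.92, 13.01, 13.01 and 13.00 in the 5 Casp8 fl/fl mice. Every CASP8 IEC-KO mouse lay below every control, and the log2 fold change was -0.29 ± 0.06 (SE, adjusted p = 0.00472). Muc2 values in both groups lie close to the highest value in the table, 13.41, and whether the brightest probe sets respond linearly there was not tested. This limit also covers Zg16, Tff3, Clca1 and Fcgbp, which ranked 10, 35, 42 and 47 by mean intensity among all genes, where Muc2 ranked 4.

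Fcgbp, a large protein cross-linked into the mucus, had 12.06, 11.23, 11.65, 11.49 and 11.73 in CASP8 IEC-KO mice, against 12.28, 12.33, 12.17, 12.22 and 12.09 in Casp8 fl/fl mice, a log2 fold change of -0.58 ± 0.10 (adjusted p = 7.57e-04). Clca1, a secreted mucus protein with metalloprotease activity, had 12.18, 11.03, 11.68, 11.18 and 11.76 in CASP8 IEC-KO mice, against 12.32, 12.24, 12.20, 12.26 and 12.18 in Casp8 fl/fl mice, a log2 fold change of -0.67 ± 0.12 (adjusted p = 0.00105). Neither gene overlapped between the groups, although for Clca1 the highest CASP8 IEC-KO mouse and the lowest control were equal to 2 decimals. Replicate 1, the CASP8 IEC-KO mouse with the highest Casp8 signal, had the highest Muc2, Fcgbp, Clca1 and Tff3 of its group. Without it, the log2 fold changes were -0.34 for Muc2, -0.69 for Fcgbp and -0.83 for Clca1, and 8 of the 10 members were called.

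Tff3, the trefoil peptide co-secreted with mucin, was 11.99, 11.57, 11.75, 11.77 and 11.79 in CASP8 IEC-KO mice, against 12.19, 12.30, 12.20, 12.30 and 12.04 in Casp8 fl/fl mice. The log2 fold change was -0.43 ± 0.09 (adjusted p = 0.00609), and the groups did not overlap. Zg16, a lectin-like granule protein that binds bacterial cell walls, fell by 0.37 on the log2 scale (adjusted p = 0.0128). One CASP8 IEC-KO mouse, replicate 1 at 12.61, reached the control range of 12.60 to 12.75, and the other 4 lay between 11.93 and 12.33. Spink4, a secreted Kazal-type protease inhibitor of goblet cells, was 11.18 to 11.39 in CASP8 IEC-KO mice and 11.38 to 11.97 in Casp8 fl/fl mice, with a log2 fold change of -0.44 ± 0.11 (adjusted p = 0.0213).

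Among genes of the secretory machinery and of cell fate, Sytl2, a Rab27 effector in granule exocytosis, had a log2 fold change of -0.49 ± 0.12 (adjusted p = 0.0136). Creb3l4, a membrane-bound transcription factor of the endoplasmic reticulum, changed by -0.48 ± 0.14 (adjusted p = 0.0392). Atoh1 was 7.75 to 8.34 in CASP8 IEC-KO mice and 8.31 to 8.68 in Casp8 fl/fl mice, with a log2 fold change of -0.36 ± 0.11 (adjusted p = 0.0461). The calls of Creb3l4 and Atoh1 were the least stable of the 9, each kept in 4 of 10 leave-one-out fits, and Muc2, Clca1, Fcgbp and Tff3 were kept in all 10. Without CASP8 IEC-KO replicate 2, 5 of the 10 members were called. Agr2, the disulfide isomerase needed for mucin folding, was the exception among the 10, at 10.35 to 10.72 in CASP8 IEC-KO mice and 10.27 to 10.57 in Casp8 fl/fl mice. Its log2 fold change was 0.08, with a 95% interval of -0.09 to 0.26 (adjusted p = 0.65).

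For 5 members, Muc2, Clca1, Fcgbp, Sytl2 and Tff3, all CASP8 IEC-KO mice lay below all Casp8 fl/fl mice, where 1.57% of all genes were lower without overlap. With only the arrays of these 2 groups in the fit, none of the 10 members was called by limma, at adjusted p-values of 0.107 for Tff3 to 0.713 for Agr2, with the same fold changes. Of all genes 10 were called in that fit and 813 in the fit that takes its spread from all 9 groups. In CASP8 IEC-KO mice the SD was 0.46 for Clca1, 0.31 for Fcgbp and 0.14 for Muc2. Pooled over all groups it was 0.20, 0.16 and 0.08, so the standard errors given for these genes understate the spread within CASP8 IEC-KO mice. Among the 10 members only Spink4 had the smaller SD in CASP8 IEC-KO mice, 0.08 against 0.18 pooled. With title numbers under 100 alone, the 9 log2 fold changes lay between -0.62 and -0.30, and only Fcgbp was called (adjusted p = 0.0399).

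Promoter sequences are shown for a pair of mucus genes that fell, Muc2 and Fcgbp, and for Agr2, which was not called. RefSeq promoters on mouse build GRCm38.p6 were matched for 5 of the 10 members. The windows hold the 250 bases before the transcription start on the plus strand, at chr7:141690090-141690339 for Muc2, chr7:28070986-28071235 for Fcgbp and chr12:35992675-35992924 for Agr2. Capitals mark CAGCTG, an E-box of the kind that basic helix-loop-helix factors bind, and TATAA, the core of the TATA box.

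Muc2: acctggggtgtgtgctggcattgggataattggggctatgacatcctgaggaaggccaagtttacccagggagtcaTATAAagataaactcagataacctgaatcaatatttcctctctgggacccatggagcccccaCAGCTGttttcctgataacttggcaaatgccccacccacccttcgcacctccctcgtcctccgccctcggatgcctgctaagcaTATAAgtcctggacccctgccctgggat
Fcgbp: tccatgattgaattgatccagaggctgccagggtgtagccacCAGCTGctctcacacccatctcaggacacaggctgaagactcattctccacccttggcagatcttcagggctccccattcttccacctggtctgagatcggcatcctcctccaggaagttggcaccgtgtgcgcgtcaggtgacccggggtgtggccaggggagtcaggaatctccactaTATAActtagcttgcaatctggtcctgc
Agr2: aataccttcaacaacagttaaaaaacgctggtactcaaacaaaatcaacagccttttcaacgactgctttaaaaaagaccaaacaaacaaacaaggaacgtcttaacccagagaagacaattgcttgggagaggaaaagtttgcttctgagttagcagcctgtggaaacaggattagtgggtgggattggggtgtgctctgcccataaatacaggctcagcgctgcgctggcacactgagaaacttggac

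Both strands were searched. Muc2 and Fcgbp share a TATAA at -28 from the start, Muc2 has another at -174, and each holds 1 CAGCTG, at -112 in Muc2 and -208 in Fcgbp. Of 32851 mouse promoter windows of this length, 13% held CAGCTG and 22.8% held TATAA. The Agr2 window held neither, and nor did the window of Atoh1, which fell. Creb3l4, which also fell, held no CAGCTG in its 3 windows and a TATAA in 1 of them. The motifs therefore did not separate the members that fell from Agr2, and no match says only that these letters are not in this window. ACGTG, the core of unfolded protein response elements, was in none of the windows of the 5 matched members and in 16.6% of all windows.

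Clca1, Fcgbp, Tff3 and Atoh1 were higher when MLKL was lost together with caspase-8 than when caspase-8 alone was lost. The CASP8 IEC-KO mice are the same as in the comparison with Casp8 fl/fl, so low values in them enter both results. In CASP8 IEC-KO Mlkl -/- ileum 4 of the 10 members rose relative to CASP8 IEC-KO ileum and none fell, where 2.78% of all genes were called and 1.59% rose. Clca1 was 12.27, 12.23, 12.36, 12.32 and 12.24 in CASP8 IEC-KO Mlkl -/- mice, against 12.18, 11.03, 11.68, 11.18 and 11.76 in CASP8 IEC-KO mice. Every double mutant lay above every CASP8 IEC-KO mouse (log2 fold change 0.72 ± 0.12, adjusted p = 1.92e-04). Fcgbp rose by 0.39 ± 0.10 (adjusted p = 0.0262), Tff3 by 0.38 ± 0.09 (adjusted p = 0.0132) and Atoh1 by 0.40 ± 0.11 (adjusted p = 0.028). Tff3 and Atoh1 also did not overlap between the groups. In all, 3 members were higher without overlap, against 2.22% of all genes. With only these groups fitted, Tff3 alone was called, and Clca1 (adjusted p = 0.0623), Atoh1 (0.117) and Fcgbp (0.173) were not. Within title numbers under 100, Clca1 alone was called (0.67, adjusted p = 0.0296).

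The other 6 had positive log2 fold changes that did not pass the test, between 0.10 for Agr2 and 0.33 for Sytl2. Muc2 averaged 12.87 ± 0.05 in CASP8 IEC-KO Mlkl -/- mice and 12.69 ± 0.14 in CASP8 IEC-KO mice (SD, n = 5 each), a log2 fold change of 0.18 with an interval of 0.06 to 0.31 (adjusted p = 0.122). Without CASP8 IEC-KO replicate 1, 7 members were called, with Muc2 at 0.23, Zg16 at 0.35 and Sytl2 at 0.41. Without CASP8 IEC-KO replicate 2, the mouse with the lowest Muc2 and Fcgbp, 1 was called. Leaving out replicate 1, 3 or 4 of CASP8 IEC-KO Mlkl -/- gave 2 called members each time. Against Casp8 fl/fl mice, CASP8 IEC-KO Mlkl -/- mice showed no called member, where 1.09% of all genes were called. The 10 log2 fold changes ranged from -0.20 for Spink4 to 0.18 for Agr2, and the widest interval was that of Creb3l4, -0.46 to 0.11.

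Paneth cell genes moved in the same comparisons. In CASP8 IEC-KO against Casp8 fl/fl ileum, 17 of 19 Paneth genes fell with a median log2 fold change of -2.29, and in CASP8 IEC-KO Mlkl -/- against CASP8 IEC-KO ileum 14 of 19 rose with a median of 2.03. The mean log2 intensity of the Paneth list was 9.84 to 10.68 per mouse in CASP8 IEC-KO Mlkl -/-, 7.18 to 10.35 in CASP8 IEC-KO and 10.30 to 11.28 in Casp8 fl/fl. Within CASP8 IEC-KO, replicate 1 had the highest mean of the 10 goblet members, 10.73, and of the Paneth list, 10.35, and replicate 2 the lowest goblet mean, 10.25. Pan-epithelial genes averaged 10.85 to 11.01 in CASP8 IEC-KO mice and 10.78 to 10.92 in Casp8 fl/fl mice. T cell genes averaged 6.13 to 7.48 in CASP8 IEC-KO mice, against 6.94 to 7.71 in Casp8 fl/fl mice, and 1 of 9 fell. In CASP8 IEC-KO Mlkl -/- mice T cell genes averaged 7.35 to 7.75, and 1 of 9 rose against CASP8 IEC-KO, with a median log2 fold change of 0.73. Their part in the goblet cell result was not tested.

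**Figure D2:**
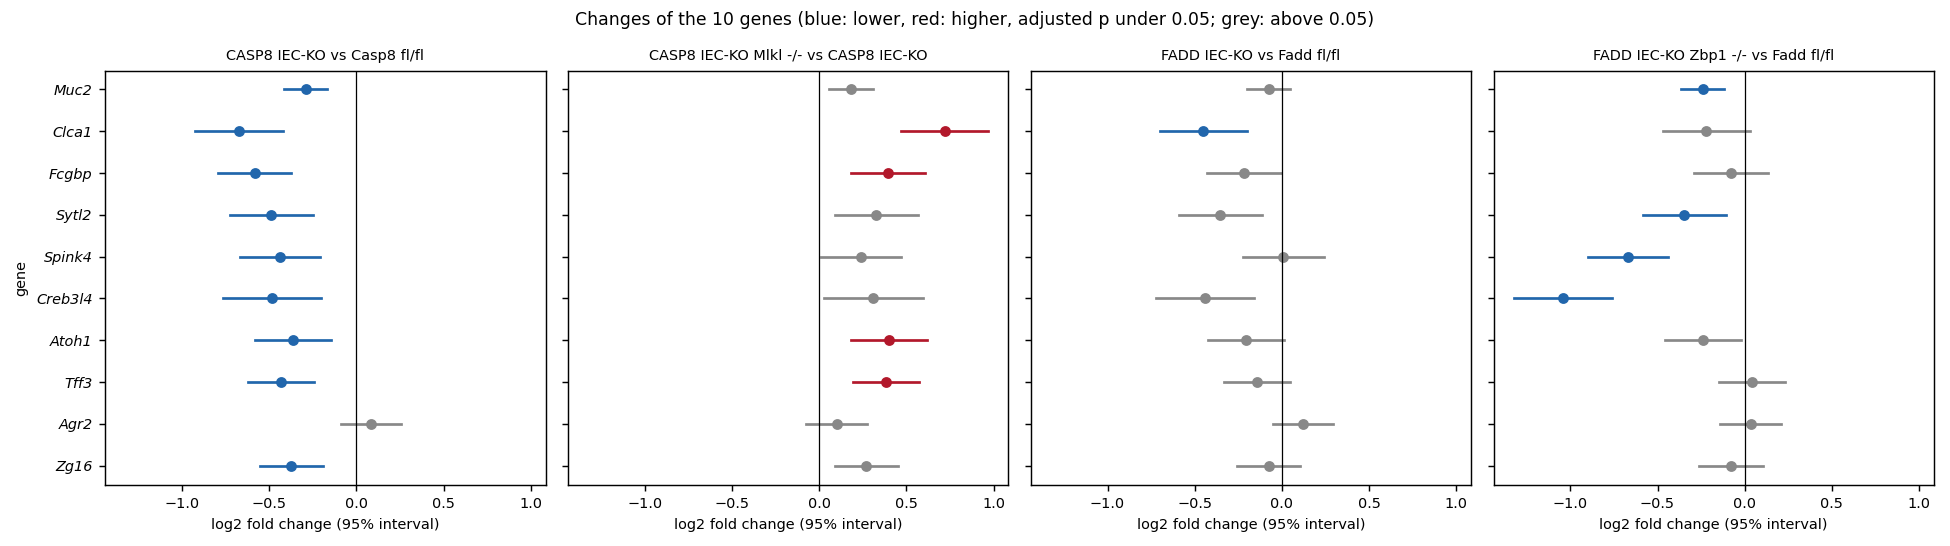
Log2 fold changes (x axis) of the 10 genes (y axis) with 95% intervals in 4 comparisons. Blue marks lower and red higher at an adjusted p under 0.05, and grey marks the rest. In CASP8 IEC-KO against Casp8 fl/fl 9 genes lie left of 0 and Agr2 spans it, and in FADD IEC-KO Zbp1 -/- against Fadd fl/fl Creb3l4 lies furthest left at -1.04.

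After loss of epithelial FADD, Clca1 alone among the members passed the test. In FADD IEC-KO against Fadd fl/fl ileum, 1 of the 10 members was called, where 3.73% of all genes were called and 1.92% fell. The median log2 fold change was -0.17 over the members and -0.00 over all genes. Clca1 was 12.09, 11.81, 11.61, 11.95 and 11.41 in FADD IEC-KO mice, against 12.33, 12.27, 12.23, 12.05 and 12.24 in Fadd fl/fl mice. FADD IEC-KO replicate 1 and Fadd fl/fl replicate 4 overlapped, and the log2 fold change was -0.45 ± 0.12 (adjusted p = 0.0314). The call was kept in 4 of 10 leave-one-out fits and lost without replicate 1, 2 or 5 of Fadd fl/fl or replicate 2, 3 or 5 of FADD IEC-KO (highest adjusted p = 0.106). It was kept without FADD IEC-KO replicate 1 (log2 fold change -0.53, adjusted p = 0.0137).

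The other 9 members did not pass the test. Creb3l4 was 7.30 to 7.66 in FADD IEC-KO mice and 7.74 to 8.14 in Fadd fl/fl mice, with no overlap (log2 fold change -0.44 ± 0.14, adjusted p = 0.0636), where 1.59% of all genes were lower without overlap. In Casp8 fl/fl mice, the other floxed controls, Creb3l4 was 7.16 to 7.88. Sytl2 had a log2 fold change of -0.35 ± 0.12 (adjusted p = 0.0777). Muc2 had -0.08, with an interval of -0.20 to 0.05, and Spink4 had 0.01, with an interval of -0.22 to 0.24. Of the Paneth list 17 of 19 fell, with a median of -2.36, and 3 of 8 fibroblast genes and 4 of 8 macrophage genes fell too. Their part in the Clca1 result was not tested.

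The difference between FADD loss and CASP8 loss was tested as an interaction. None of the 10 members passed, and by limma 0 of 19494 genes did, with 1271 at an unadjusted p under 0.05 and 11 called with array weights. The interaction was 0.45 ± 0.16 for Spink4 (adjusted p = 0.569), 0.37 ± 0.15 for Fcgbp (adjusted p = 0.654) and 0.21 ± 0.09 for Muc2 (adjusted p = 0.664). Every member had a positive value. Unadjusted limma p-values were under 0.05 for Spink4 (0.00866), Fcgbp (0.0175), Muc2 (0.019), Zg16 (0.0233) and Tff3 (0.037), and above it for the others. The change of these genes after FADD loss and after CASP8 loss was therefore not shown to differ.

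No member was called in FADD IEC-KO Mlkl -/- against FADD IEC-KO ileum, where 1.61% of all genes were called. Clca1 had a log2 fold change of 0.38 ± 0.12 (adjusted p = 0.136), and without FADD IEC-KO replicate 1 it had 0.46 (adjusted p = 0.0486). With RIPK3 lost as well as FADD, no member was called against FADD IEC-KO ileum either, where 1.55% of genes were called, and Clca1 had 0.41 ± 0.12 (adjusted p = 0.0863). Clca1 was 12.18, 12.10, 12.13, 12.20 and 12.27 in the RIPK3-deficient mice and 11.41 to 12.09 in FADD IEC-KO mice, with no overlap, where 1.31% of all genes were higher without overlap. It was called without FADD IEC-KO replicate 1 (0.49, adjusted p = 0.0365) and without replicate 4 (0.45, adjusted p = 0.0454). The change after MLKL loss without CASP8 minus that without FADD was not called for any member, and 0.0564% of all genes passed. For Clca1 this difference was 0.34 ± 0.18 (adjusted p = 0.816), and for Spink4 it was 0.49 ± 0.16 (adjusted p = 0.435). Unadjusted limma p-values were under 0.05 for Spink4, Muc2, Zg16 and Tff3, above it for the other members, and under 0.05 for 1229 of all genes.

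**Figure D3:**
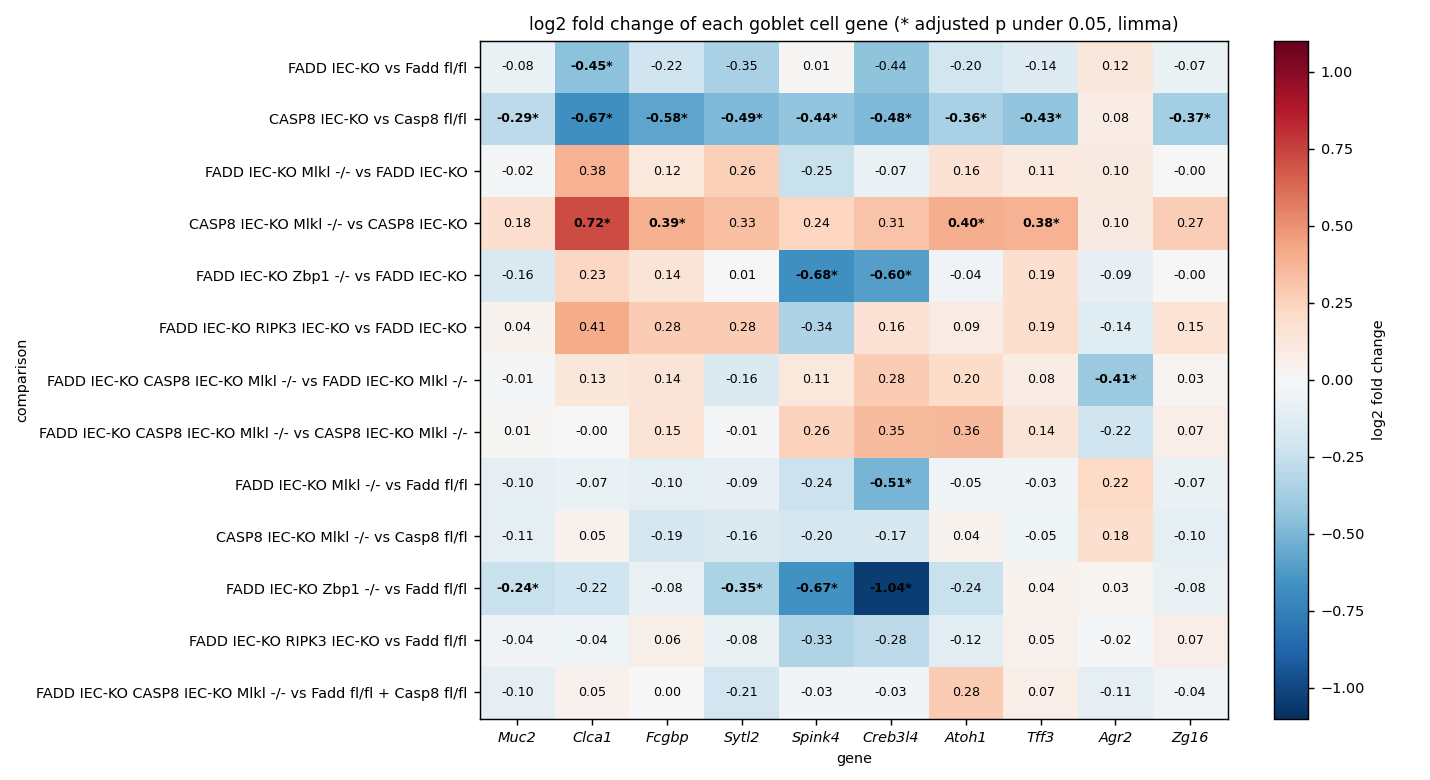
Log2 fold change of each gene (x axis) in 13 comparisons (y axis), blue for lower and red for higher, with an asterisk at an adjusted p under 0.05. CASP8 IEC-KO against Casp8 fl/fl has 9 asterisks and FADD IEC-KO Zbp1 -/- against Fadd fl/fl has 4.

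FADD IEC-KO Zbp1 -/- ileum had the lowest Creb3l4 and Spink4 means of the 9 groups. All comparisons of this group use the same mice, so their results are not independent of each other. Against FADD IEC-KO, 2 of the 10 members fell, where 3.32% of all genes were called, 2.47% fell and 1.8% were lower without overlap. Creb3l4 was 6.65, 7.12, 6.80, 7.01 and 6.75 in FADD IEC-KO Zbp1 -/- mice, against 7.66, 7.42, 7.30, 7.63 and 7.35 in FADD IEC-KO mice (log2 fold change -0.60 ± 0.14, adjusted p = 0.012). Spink4 was 10.99, 11.55, 11.16, 11.37 and 11.09 in FADD IEC-KO Zbp1 -/- mice, against 11.66, 12.14, 12.03, 12.01 and 11.70 in FADD IEC-KO mice (log2 fold change -0.68 ± 0.11, adjusted p = 0.00161). Neither gene overlapped between the groups. Both calls were kept in all 10 leave-one-out fits and lost when only these groups were fitted (adjusted p = 0.153 each). None of the mucus gel genes passed the test, and their signs were mixed. Muc2 had a log2 fold change of -0.16, with an interval of -0.29 to -0.04 (adjusted p = 0.133). Clca1 had 0.23 (-0.02 to 0.48), Tff3 0.19 (-0.00 to 0.38), Fcgbp 0.14 (-0.07 to 0.35) and Zg16 -0.00 (-0.19 to 0.18). The Paneth list averaged 7.22 to 8.34 in FADD IEC-KO Zbp1 -/- mice and 8.05 to 9.43 in FADD IEC-KO mice, and 1 of 19 Paneth genes fell, with a median log2 fold change of -0.82. Its part in the Creb3l4 and Spink4 results was not tested.

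Against Fadd fl/fl, 4 of the 10 members fell in FADD IEC-KO Zbp1 -/- ileum, where 11.9% of all genes were called and 7.08% fell. Creb3l4 fell by 1.04 ± 0.14 on the log2 scale to 0.485 of the control level (adjusted p = 1.9e-06), with 7.74 to 8.14 in the Fadd fl/fl mice above all FADD IEC-KO Zbp1 -/- mice. Fadd fl/fl mice had the highest Creb3l4 mean of the 9 groups, 7.91, against 7.51 in Casp8 fl/fl mice, so the size of the fall depends on the control. The FADD IEC-KO Zbp1 -/- mice, at 6.65 to 7.12, also lay below the 7.16 to 7.88 of Casp8 fl/fl mice. Spink4 fell by 0.67 ± 0.11 (adjusted p = 1.05e-04), Sytl2 by 0.35 ± 0.12 (adjusted p = 0.0481) and Muc2 by 0.24 ± 0.06 (adjusted p = 0.00734). Muc2 was 12.67, 12.74, 12.78, 12.91 and 12.67 in FADD IEC-KO Zbp1 -/- mice and 13.05, 12.92, 12.98, 12.98 and 13.06 in Fadd fl/fl mice, with no overlap, where 3.64% of all genes were lower without overlap. The Muc2 call was lost with only these groups fitted (adjusted p = 0.154). The Sytl2 call was kept in 2 of 10 leave-one-out fits and in 1 of 6 other alternatives, and was lost with the title series as a covariate (adjusted p = 0.0546). Within title numbers of 200 and over, Creb3l4 had -1.14 (adjusted p = 8.39e-04) and Spink4 -0.81 (adjusted p = 0.00453). Within numbers under 100 Creb3l4 had -0.89 (adjusted p = 0.0635) and Spink4 -0.46 (adjusted p = 0.267). Muc2 was not called within either, at -0.22 and -0.25. All 19 Paneth genes fell, with a median of -3.71, as did 7 of 8 fibroblast genes and 5 of 8 macrophage genes. The Paneth list averaged 7.22 to 8.34 in FADD IEC-KO Zbp1 -/- mice and 10.12 to 11.40 in Fadd fl/fl mice. Their part in these results was not tested.

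Against the mice without both FADD and MLKL, FADD IEC-KO Zbp1 -/- ileum had lower Creb3l4 (log2 fold change -0.53 ± 0.14, adjusted p = 0.0202) and Spink4 (-0.43 ± 0.11, adjusted p = 0.0221), 2 of 10 members, where 4.12% of all genes were called, 2.36% fell and 2.44% were lower without overlap. Neither gene overlapped between the groups. Spink4 lost its call in 4 of 10 leave-one-out fits and with only these groups fitted (adjusted p = 0.0791), and Creb3l4 in 3 of 10. The leave-outs were those of FADD IEC-KO Zbp1 -/- replicates 1 and 5 and FADD IEC-KO Mlkl -/- replicate 4 for both, and of FADD IEC-KO Mlkl -/- replicate 2 for Spink4. Within title numbers under 100 neither was called (adjusted p = 0.173 for Creb3l4 and 0.207 for Spink4). Of the Paneth list 10 of 19 fell, with 7.22 to 8.34 in FADD IEC-KO Zbp1 -/- mice and 8.40 to 9.79 in FADD IEC-KO Mlkl -/- mice. Of the smooth muscle list 9 of 10 rose, with 9.69 to 10.08 in FADD IEC-KO Zbp1 -/- mice and 8.94 to 9.36 in FADD IEC-KO Mlkl -/- mice. Their part in these results was not tested.

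In FADD IEC-KO RIPK3 IEC-KO against FADD IEC-KO Zbp1 -/- ileum, 1 of 10 members rose, where 2.02% of genes were called, 1.45% rose and 1.52% were higher without overlap. Creb3l4 rose, with 7.39 to 7.90 in the RIPK3-deficient mice and 6.65 to 7.12 in the Zbp1 -/- ones (log2 fold change 0.76 ± 0.14, adjusted p = 0.00125). Within title numbers under 100 it was not called (0.62, adjusted p = 0.404), and within 200 and over it was (0.96, adjusted p = 0.0155). Of the Paneth list 14 of 19 rose, with 9.68 to 10.27 in the RIPK3-deficient mice and 7.22 to 8.34 in the Zbp1 -/- ones, and its part in the Creb3l4 result was not tested. FADD IEC-KO RIPK3 IEC-KO against Fadd fl/fl mice showed no called member, where 1.23% of genes were called. Against FADD IEC-KO Mlkl -/- mice they showed none either, where 4.96% were called, and Fcgbp was higher without overlap, where 3.97% of all genes were.

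In FADD IEC-KO Mlkl -/- against Fadd fl/fl ileum, 1 of 10 members was called, a share close to that of all genes. Over all genes 10.5% were called, 6.35% fell and 5.63% were lower without overlap. The member was Creb3l4, which fell. Its values were 7.42, 7.26, 7.47, 7.49 and 7.36 without FADD and MLKL, against 7.74, 7.76, 7.94, 7.98 and 8.14 in Fadd fl/fl mice, a log2 fold change of -0.51 ± 0.14 (adjusted p = 0.0137). The values without FADD and MLKL lay within the 7.16 to 7.88 of Casp8 fl/fl mice, the other floxed controls. With the title series as a covariate the log2 fold change was -0.40 (adjusted p = 0.0724), and without Fadd fl/fl replicate 5 the call was lost. Agr2 was higher without overlap, where 4.23% of all genes were, and did not pass the test (log2 fold change 0.22 ± 0.09, adjusted p = 0.0956). Endoplasmic reticulum genes of the secretory pathway rose in these mice, 11 of 31 with 1 lower. Creld2, a stress-responsive protein of the endoplasmic reticulum, had 0.71, Dnajb11, a chaperone cofactor, 0.56 and Tmed6, a member of the p24 cargo receptor family, -0.57. Of the Paneth list 18 of 19 fell and of the fibroblast list 7 of 8, and their part in the Creb3l4 result was not tested. FADD IEC-KO Mlkl -/- against CASP8 IEC-KO Mlkl -/- ileum showed no called member, where 2.26% of all genes were called, and Agr2 was higher without overlap, where 2.95% were.

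Between triple mutant and FADD IEC-KO Mlkl -/- ileum 1 of the 10 members was called, a share close to that of all genes. Over all genes 7.86% were called and 2.35% fell. Agr2 was 10.40, 10.19, 10.41, 10.46 and 10.41 in FADD IEC-KO CASP8 IEC-KO Mlkl -/- mice and 10.91, 10.76, 10.80, 10.68 and 10.77 in FADD IEC-KO Mlkl -/- mice. The groups did not overlap, where 4.04% of all genes were lower without overlap, and the log2 fold change was -0.41 ± 0.09 (adjusted p = 0.00224). Fcgbp and Creb3l4 were higher without overlap, where 6.87% of all genes were, but did not pass the test. Endoplasmic reticulum genes fell in 5 of 31 cases, among them Pdia6, a disulfide isomerase, at -0.41, and smooth muscle genes rose in 9 of 10 cases. The smooth muscle list averaged 9.80 to 10.22 in triple mutants and 8.94 to 9.36 in FADD IEC-KO Mlkl -/- mice, and its part in the Agr2 result was not tested. Neither of these groups holds both title series, so series and genotype cannot be told apart here. With the title series as a covariate, estimated from the other groups, Agr2 had -0.38 (adjusted p = 0.027).

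Against CASP8 IEC-KO Mlkl -/- ileum, triple mutant ileum had no called member, where 3.1% of all genes were called. All 5 triple mutants have title numbers of 200 and over and 4 of 5 CASP8 IEC-KO Mlkl -/- mice have numbers under 100, and with the title series as a covariate the genes called over all were 164 in place of 605. Atoh1 was 9.04, 8.85, 8.91, 8.76 and 8.96 in triple mutants and 8.65, 8.35, 8.58, 8.62 and 8.52 in CASP8 IEC-KO Mlkl -/- mice, a log2 fold change of 0.36 ± 0.11 (adjusted p = 0.0546). Atoh1, Fcgbp, Spink4 and Creb3l4 were higher without overlap, where 4.61% of all genes were, and Agr2 was lower without overlap, where 2.32% were. Against the mean of both floxed control groups, triple mutants showed no called member either, where 3.69% of all genes were called, and the Muc2 log2 fold change was -0.10 with an interval of -0.21 to 0.00. No member was called between the floxed control groups, where 0.00513% of all genes were called. Creb3l4 had 0.40 ± 0.14 in Fadd fl/fl against Casp8 fl/fl mice (adjusted p = 0.346).

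The other goblet cell genes were measured for 19 of 20. In CASP8 IEC-KO against Casp8 fl/fl ileum, 7 of 19 fell and none rose, among them the chemokine gene Ccl6 (-1.05), the Rab15 effector gene Rep15 (-0.62) and the calpain gene Capn9 (-0.55), with a median of -0.21. In CASP8 IEC-KO Mlkl -/- against CASP8 IEC-KO ileum, Ccl6 (1.46) and Hgfac, a serine protease gene (0.61), rose, 2 of 19. In FADD IEC-KO against Fadd fl/fl ileum, Ccl6 (-0.83) and the tryptase gene Tpsg1 (-0.56) fell, 2 of 19. In FADD IEC-KO Zbp1 -/- against FADD IEC-KO ileum, Creb3l1, a relative of Creb3l4 (-0.60), and the transporter gene Slc12a8 (-0.44) fell, 2 of 19. Among all genes 1.28% fell in the first of these comparisons, 1.59% rose in the second, and 1.92% and 2.47% fell in the others.

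Genes that glycosylate mucins were called in few cases, as were genes in general. In CASP8 IEC-KO against Casp8 fl/fl ileum, 1 of 22 fell, the fucosyltransferase gene Fut4 (-0.47). There, 4.17% of all genes were called and 1.28% fell. In CASP8 IEC-KO Mlkl -/- against CASP8 IEC-KO ileum, 1 of 22 fell, Gcnt3, which builds branched mucin glycans (-0.81). There, 2.78% of all genes were called. In FADD IEC-KO Zbp1 -/- against Fadd fl/fl ileum, 3 fell and 1 rose, with the sialyltransferase gene St3gal6 at -0.90, Fut4 at -0.64 and Galnt5, an initiating transferase, at -0.58, where 11.9% of all genes were called and 7.08% fell. None of the 31 endoplasmic reticulum genes and none of the 13 genes of Notch signalling and secretory fate was called in CASP8 IEC-KO against Casp8 fl/fl ileum. With 4.17% of all genes called, lists of this size would hold few called genes or none.

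Most of the 10 members varied together within groups. After subtraction of the group means, the 45 member pairs had a median Pearson r of 0.43 over 45 arrays, and 42 were positive. The arrays share tissue composition and RNA input, and the values are a description. Without Spink4, Creb3l4 and Agr2, left out after their values were seen, the 21 pairs had a median of 0.66 and ranged from 0.25 to 0.89. Fcgbp and Zg16 were closest, at 0.89, and Clca1 and Fcgbp followed at 0.87. Spink4 and Agr2 stood apart, with median r of 0.10 and 0.12 with the other members, and were closest to each other at 0.45.

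**Figure D4:**
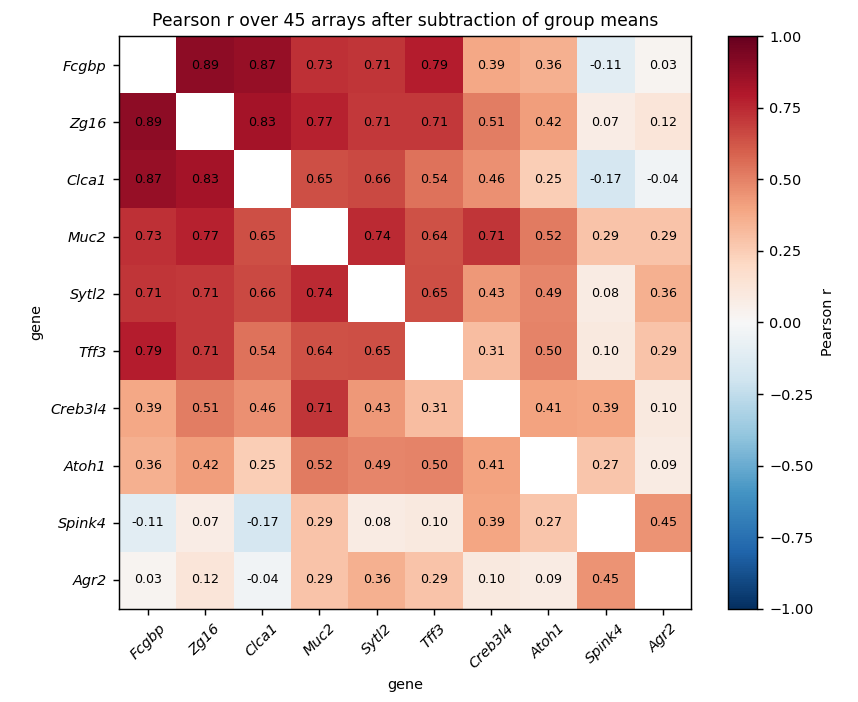
Pearson r between the 10 genes (both axes) over 45 arrays after subtraction of the group means. Fcgbp, Zg16, Clca1, Muc2, Sytl2 and Tff3 form a block at 0.54 or above, and Spink4 and Agr2 lie at 0.45 or below with each other gene.

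Among all other genes, Hepacam2 (0.87), Capn9 (0.85), Klk1 (0.85) and Klk1b5 (0.81) had the highest r with the mean of the members over 45 arrays after subtraction of group means, followed by Elapor1 (0.79), Akr1e1 (0.76), Lrrc26 (0.76) and Gm609 (0.75). Klk1 and Klk1b5 are close paralogs whose probes may share targets. Without subtraction the order began with the same 4 genes, with Hepacam2 at 0.89, and went on with Rgs2 (0.82), Rab27a (0.81), Sytl5 (0.78) and Rab27b (0.78).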

How the data were processed

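The deposited table holds log2 intensities that the authors summarized and normalized; per the submitters' processing notes, Expression Console and Transcriptome Analysis Console of Affymetrix were used, with no version. The summarization method and genome build were not given in the sources used here. Per the labels' protocols, the target was made with the WT PLUS kit. Of 22142 probe sets, 19527 had 1 symbol and 2615 none. Where a gene had several probe sets (33 genes), the brightest on average stood for it, giving 19494 genes.

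Groups came from the titles. With limma 3.58.1 in R 4.3.3, all 45 arrays entered a single linear model holding a mean for each group, which left 36 residual degrees of freedom. Contrasts were tested with eBayes, and Benjamini-Hochberg adjustment covered the 19494 genes of each comparison separately. Called means an adjusted p under 0.05, errors of fold changes are standard errors, and intervals are 95%. P-values measure the spread between mice, pooled over groups. The number of arrays limits the precision. The members, lists and comparisons were chosen with earlier results of these data known. The named genes were all 10 members, up to 3 called genes with the largest change of each other list described, and the 8 genes most like the members. The alternatives tried were fitting the compared groups on their own, adding the title series as a covariate, array weights, quantile normalization, median centring, a filter on dim genes, leaving out each replicate, and, added after seeing the data, fits within a title series. A further 18 gene lists of pathways and cell types were counted, of which the text gives those that moved beside a result. In CASP8 IEC-KO against Casp8 fl/fl, called genes higher and lower were 0 and 2 of 13 enteroendocrine, 1 and 0 of 11 proliferation, 2 and 0 of 13 pan-epithelial and 0 and 1 of 8 macrophage genes. No gene of the tuft, enterocyte, stem cell, smooth muscle, fibroblast, B and plasma cell and neutrophil lists was called there.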

Additional observations from a re-analysis of the deposited data

Results flagged for a closer look

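Of 90 combinations of gene and group with 5 mice, 3 held a mouse set apart from the rest of its group by a gap above Dixon's critical value of 0.71 of the range, and chance gives about 1 in 20. Spink4 was 11.48 in Fadd fl/fl replicate 1, against 11.92 to 12.04 in the other 4 mice. Spink4 was 11.26 in CASP8 IEC-KO Mlkl -/- replicate 3, against 11.54 to 11.62 in the other 4. Agr2 was 10.19 in triple mutant replicate 2, against 10.40 to 10.46 in the other 4. The Agr2 difference between triple mutants and FADD IEC-KO Mlkl -/- mice was called in all 10 leave-one-out fits.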

How the results depend on the processing

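No called difference of a member changed sign under any alternative. Numbers of called members are given below per comparison. With only the groups compared in the fit, they were 0 for FADD IEC-KO and 0 for CASP8 IEC-KO against their floxed controls, 1 for CASP8 IEC-KO Mlkl -/- against CASP8 IEC-KO, 0 for FADD IEC-KO Zbp1 -/- against FADD IEC-KO, 2 for triple mutants against FADD IEC-KO Mlkl -/-, 1 for triple mutants against CASP8 IEC-KO Mlkl -/-, 2 for FADD IEC-KO Zbp1 -/- against Fadd fl/fl and 1 against FADD IEC-KO Mlkl -/-. Such fits estimate the spread from 10 arrays in place of 45. With array weights they were 2 for FADD IEC-KO against Fadd fl/fl, 1 each for the mice without MLKL, ZBP1 or RIPK3 set against FADD IEC-KO, 2 for triple mutants against CASP8 IEC-KO Mlkl -/- and 2 for FADD IEC-KO Mlkl -/- against Fadd fl/fl. With quantile normalization they were 2 for FADD IEC-KO and 2 for FADD IEC-KO Mlkl -/- against Fadd fl/fl, 1 for FADD IEC-KO RIPK3 IEC-KO against FADD IEC-KO, 1 against FADD IEC-KO Mlkl -/- and 2 against FADD IEC-KO Zbp1 -/-. With the filter on dim genes they were 2 for FADD IEC-KO against Fadd fl/fl, 1 for triple mutants against CASP8 IEC-KO Mlkl -/- and 2 for FADD IEC-KO RIPK3 IEC-KO against FADD IEC-KO Zbp1 -/-. With the title series as a covariate the number was 0 for FADD IEC-KO Mlkl -/- against Fadd fl/fl. Within numbers under 100, which leaves fewer mice, it was 0 against Fadd fl/fl for FADD IEC-KO alone and with Mlkl -/- or Zbp1 -/-, 1 for CASP8 IEC-KO against Casp8 fl/fl, 1 for CASP8 IEC-KO Mlkl -/- against CASP8 IEC-KO, and 0 for FADD IEC-KO Zbp1 -/- against FADD IEC-KO, against FADD IEC-KO Mlkl -/- and in the comparison with RIPK3-deficient mice. Within 200 and over it was 2 for FADD IEC-KO Zbp1 -/- against Fadd fl/fl. Leaving out single mice gave 0 to 3 for FADD IEC-KO and 5 to 9 for CASP8 IEC-KO against their controls, 1 to 7 for CASP8 IEC-KO Mlkl -/- against CASP8 IEC-KO, 0 to 1 for FADD IEC-KO Mlkl -/- and 0 to 2 for FADD IEC-KO RIPK3 IEC-KO against FADD IEC-KO, 0 to 2 for FADD IEC-KO Mlkl -/- and 0 to 1 for FADD IEC-KO RIPK3 IEC-KO against Fadd fl/fl, and, for FADD IEC-KO Zbp1 -/-, 0 to 2 against FADD IEC-KO Mlkl -/- and 1 to 2 in the comparison with FADD IEC-KO RIPK3 IEC-KO. The cause of the other shifts was not tested. Over all genes, the following numbers called differed by over 1.5 times. With only the groups compared against all groups in the fit, they were 153 against 727 in FADD IEC-KO and 10 against 813 in CASP8 IEC-KO relative to their floxed controls; relative to FADD IEC-KO, 145 against 313 without MLKL, 0 against 648 without ZBP1 and 19 against 303 without RIPK3; relative to Fadd fl/fl, 820 against 2313 in FADD IEC-KO Zbp1 -/- and 64 against 239 in FADD IEC-KO RIPK3 IEC-KO; 323 against 804 in FADD IEC-KO Zbp1 -/- relative to FADD IEC-KO Mlkl -/-, 68 against 394 in FADD IEC-KO RIPK3 IEC-KO relative to FADD IEC-KO Zbp1 -/-, 876 against 440 in FADD IEC-KO Mlkl -/- relative to CASP8 IEC-KO Mlkl -/-, and 451 against 720 in triple mutants relative to both controls. With the title series as a covariate they were 998 in place of 648 for FADD IEC-KO Zbp1 -/- against FADD IEC-KO, and for triple mutants 667 in place of 1533 against FADD IEC-KO Mlkl -/-, 164 in place of 605 against CASP8 IEC-KO Mlkl -/- and 475 in place of 720 against both controls. With array weights they were, against FADD IEC-KO, 497 in place of 313 without MLKL, 337 in place of 648 without ZBP1 and 488 in place of 303 without RIPK3. For triple mutants they were 2839 in place of 1533 against FADD IEC-KO Mlkl -/-, 1479 in place of 605 against CASP8 IEC-KO Mlkl -/- and 1192 in place of 720 against both controls. For CASP8 IEC-KO Mlkl -/- they were 1083 in place of 541 against CASP8 IEC-KO and 524 in place of 212 against Casp8 fl/fl. Against FADD IEC-KO Mlkl -/-, FADD IEC-KO RIPK3 IEC-KO had 1456 in place of 966, and FADD IEC-KO Mlkl -/- against CASP8 IEC-KO Mlkl -/- had 1364 in place of 440. The difference in MLKL effect had 56 in place of 11. Between the floxed controls 0 to 15 genes were called over the alternatives, and for FADD loss minus CASP8 loss 11 with array weights, 4 with quantile normalization and 2 with the dim filter. The labels name no pairs of mice, and what the title numbers stand for is not given, so no paired analysis was made.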

Other observations

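The receptor for interleukin-22, a cytokine known to act on goblet cells, changed in comparisons that share the FADD IEC-KO Mlkl -/- group. Il22ra1 had a log2 fold change of -0.81 in FADD IEC-KO Mlkl -/- against FADD IEC-KO ileum, -1.22 in FADD IEC-KO Mlkl -/- against Fadd fl/fl ileum, and 0.97 in triple mutant against FADD IEC-KO Mlkl -/- ileum. Of the 13 genes of its list, 1 and 2 fell and 3 rose in these comparisons, where 1.61%, 10.5% and 7.86% of all genes were called. All 5 FADD IEC-KO Mlkl -/- mice have title numbers under 100, so series and genotype cannot be told apart against triple mutants. Of the Fadd fl/fl mice, 2 have numbers under 100 and 3 have numbers of 200 and over, so series is unbalanced there too. Il22ra1 was not followed in the alternatives, which covered the members. In FADD IEC-KO against Fadd fl/fl ileum the soluble receptor gene Il22ra2 had -0.86, 1 of 2 genes of that list that fell. In triple mutant against CASP8 IEC-KO Mlkl -/- ileum, Sox9 (0.82) and Hes1 (0.40), transcription factors of crypt cells, rose, 2 of 13 genes of Notch signalling and secretory fate. Creb3l1 (0.78) rose too, 1 of 19 other goblet cell genes, where 3.1% of all genes were called. All 5 triple mutants have title numbers of 200 and over and 4 of 5 CASP8 IEC-KO Mlkl -/- mice have numbers under 100, and with the title series as a covariate 164 in place of 605 genes were called.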
